A study of Taeniopygia guttata with 39 samples.

Results

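HVC is a forebrain nucleus of songbirds that drives learned song. In canaries, females normally sing little, and testosterone given to adult females brings on song and enlarges HVC. Testosterone acts on HVC cells through the androgen receptor and, after conversion by aromatase, through estrogen receptors, which are transcription factors.

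The 100 transcripts described here are those whose mean level after 14 days of testosterone stood furthest above the highest of the 6 other group means, out of 26061 transcripts on the arrays. Levels were the deposited log2 values minus the median of the same array, so that a value of 0 is the middle of an array and a difference of 1 is a 2-fold difference. For each transcript a 14-day score was taken as the 14-day mean minus the highest mean among control, 1 h, 3 h, 8 h, 3 d and 7 d, with 1 array of the 3-hour group (replicate 2) left out. Transcripts of CHRNA9 and KCNK5 were to be removed by the rule, but they ranked 221 and 4346 and were not among the 100. All differences between the 14-day group and the other groups in these 100 therefore follow from the choice itself and are given as descriptions. Where counts of such differences called by limma are given, they are descriptions too and support nothing.

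The birds were adult female canaries by the study's design text (the labels give the zebra finch as organism) kept on 9 hours of light and 15 of dark, non-breeding, each with a 7-mm tube under the skin over the breast muscle. The tube of the 5 controls was empty, and those of the others held testosterone for 1 h (6 birds), 3 h (5 birds), 8 h (5 birds), 3 d (6 birds), 7 d (6 birds) or 14 d (6 birds). Singing is recorded for the 14-day and 7-day birds and for no other group. Against the other groups, duration of hormone and singing can therefore not be told apart at these times. Between 14 d and 7 d the singing label does not differ. HVC was dissected with forceps from brain sections, and RNA of 1 bird was hybridised to each of the 39 Affymetrix arrays; since the tissue is bulk, fewer cells of a type and less RNA per cell cannot be told apart.

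Of 17 measured markers of 8 cell classes, 2 were called higher at 14 d than in control and 4 lower (limma, adjusted p under 0.05). Over all transcripts 25.1% were called higher and 27.1% lower. The 4 neuron markers averaged 2.95 ± 0.12 above the array median at 14 d (SD, n = 6) and 3.06 ± 0.16 above it in controls (SD, n = 5), and they moved in opposite directions: NEFM, a neurofilament, was called higher (0.60 ± 0.24, SE), ELAVL4, an RNA-binding protein of neurons (-0.60 ± 0.11), and GAD1, a GABA-synthesising enzyme (-0.34 ± 0.12), were called lower, and SNAP25 was not called. GAD1 lost its call with values as deposited (-0.11, limma adjusted p = 0.44) and after quantile normalization (-0.12, limma adjusted p = 0.44). NEFM and ELAVL4 kept theirs in both. The 3 astrocyte markers averaged 0.07 ± 0.17 at 14 d (range -0.24 to 0.20), against 0.57 ± 0.31 at 7 d (0.06 to 0.95) and 0.35 ± 0.10 in controls (0.22 to 0.48). At 14 d 2 of the 3, the water channel AQP4 and the gap-junction protein GJA1, were called lower than control, and 3 of 3 lower than 7 d; with values as deposited 1 of the 3 was called lower than control. A fit with the array median as a covariate was chosen after seeing the data. In it, AQP4 differed from control by 0.12 at 14 d and GJA1 by -0.10. Neither was called (limma, adjusted p = 0.73 and 0.75). The third astrocyte marker, SLC1A3, was called higher than control there (0.64, adjusted p = 0.013). Among the neuron markers, NEFM kept its call (adjusted p = 0.018), and ELAVL4 and GAD1 did not (adjusted p = 0.21 and 0.52). The part of these markers in the results below was not tested. Against each of the remaining arrays, the left-out 3-hour array correlated at a median of 0.886, and its median level of the 100 transcripts was 0.56. Array medians of the deposited log2 values averaged 7.59 ± 0.08 in controls, 7.71 ± 0.13 at 1 h, 7.71 ± 0.01 at 3 h, 7.58 ± 0.03 at 8 h, 7.57 ± 0.06 at 3 d, 7.69 ± 0.11 at 7 d and 7.82 ± 0.05 at 14 d (SD; n = 5, 6, 4, 5, 6, 6 and 6). The 14-day arrays were thus the brightest on average. Numbers in the bird titles of 1 h, 3 h, 7 d and 14 d lie near each other, but each group has its own block. These blocks do not overlap and rise with duration, so that 14 d comes last among them. The numbers of 8 h and 3 d are lower and overlap in part, and those of controls are higher. Apart from 8 h against 3 d, number order and group can therefore not be told apart, and this includes 14 d against each other group.

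Of the 100 transcripts, 17 matched a gene in the RefSeq table and 15 of these an official symbol, against 2244 with a symbol among all 26061. The other 83 are known by identifier only, and how many separate genes they come from is not known. Predicted RefSeq mRNAs (XM) made up 63 of the 100, against 40.2% of all transcripts, and zebra finch Ensembl transcripts 33, against 45.8%. The deposited log2 level of the 100, averaged over arrays, had a median of 7.48, with a range of 2.38 to 10.6, and that of all transcripts was 7.68. Few of the 100 were among the brightest transcripts, with 7 in the top 20.0% of all.

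The 14-day scores of the 100 ranged from 0.50 to 1.08 with a median of 0.58, and the median over all transcripts was -0.21. The score of the transcript at rank 100 was 0.5036 and that of the next transcript was 0.5032, so the border of the set is not a gap. The named genes just outside it were AHCY (rank 112, score 0.49), which hydrolyses S-adenosylhomocysteine, HPGDS (rank 121, 0.49), a prostaglandin D synthase, and EVL (rank 126, 0.48), an actin-binding protein of the Ena/VASP family. Over all transcripts, 27.0% had a score above 0.

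In each bird the middle of the 100 transcripts was taken as their median level relative to the array median. At 14 d it averaged 0.63 ± 0.16 (SD, n = 6), with a lowest bird of 0.41, a median of 0.61 and a highest of 0.90. The controls averaged -0.37 ± 0.23 (SD, n = 5), the 1-hour birds -0.05 ± 0.56 (n = 6), the 3-hour birds -0.17 ± 0.10 (n = 4), the 8-hour birds -0.61 ± 0.24 (n = 5), the 3-day birds -0.57 ± 0.19 (n = 6) and the 7-day birds -0.31 ± 0.45 (n = 6). The 1-hour birds spread from -1.02 to 0.47, and their median of 0.17 was above their mean. The score uses group means, which low birds of that group pull down. The 14-day birds overlapped with the upper end of the 1-hour birds, which reached 0.47, and came close to 1 bird of the 7-day group at 0.38. The 3-hour array that the rule left out, at 0.56, also lay within the 14-day range.

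**Figure D1:**
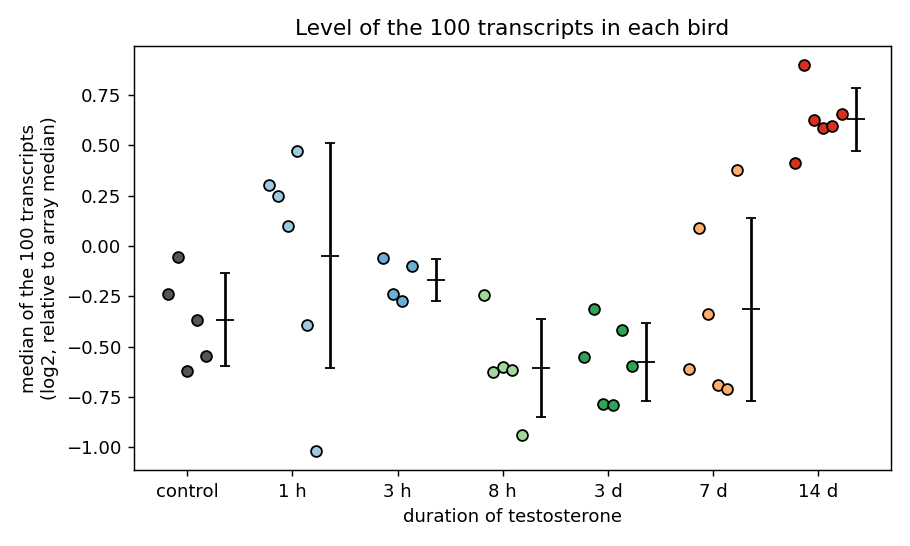
Median log2 level of the 100 transcripts relative to the array median in each bird (points), by duration of testosterone, with the group mean and SD beside the points. The 6 birds at 14 d lie between 0.41 and 0.90, and the 1-hour birds spread from -1.02 to 0.47.

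The highest other group was not the 7-day group for most of the 100. It was the 1-hour group for 53 and the 3-hour group for 28, against 6 each for 7 d and control, 4 for 8 h and 3 for 3 d. The lowest group was 3 d for 32, 8 h for 30 and 7 d for 21. These counts use group means that enter the rule, and their shares over all transcripts were not taken. Nothing is therefore read from them about the 100. Across the 100, the median difference of 14 d was 0.86 over 7 d, 1.07 over 3 d, 1.13 over 8 h, 0.71 over 3 h, 0.63 over 1 h and 0.93 over control, while the median over all transcripts lay between -0.02 and 0.00 in these comparisons.

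The 14-day level was the highest by group mean, which is what the rule requires, and seldom by single birds. The rule does not ask that the other groups stay at the control level. The 1-hour mean was above the control mean for 90 of the 100, and the 3-hour mean for 75. Shares over all transcripts were not taken for these 2 counts, so nothing is read from them. Every 14-day bird stood above every bird of the other groups for 4 of the 100, against 0.119% of all transcripts, and these were MALL, ENSTGUT00000006255, ENSTGUT00000016748 and XM_002193764 (the 3 without a symbol are named because their birds were separated, after their values were seen). With the left-out 3-hour array kept, 67 of the 100 transcripts would have been chosen again and 1 of the 4 kept its separation. The margins were small, since the lowest 14-day bird of MALL was 0.43 and the highest other bird 0.35. For XM_002193764 these were -1.11 and -1.12. Against 7 d alone, every 14-day bird stood above every 7-day bird for 24 of the 100 (2.82% of all transcripts).

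**Figure D2:**
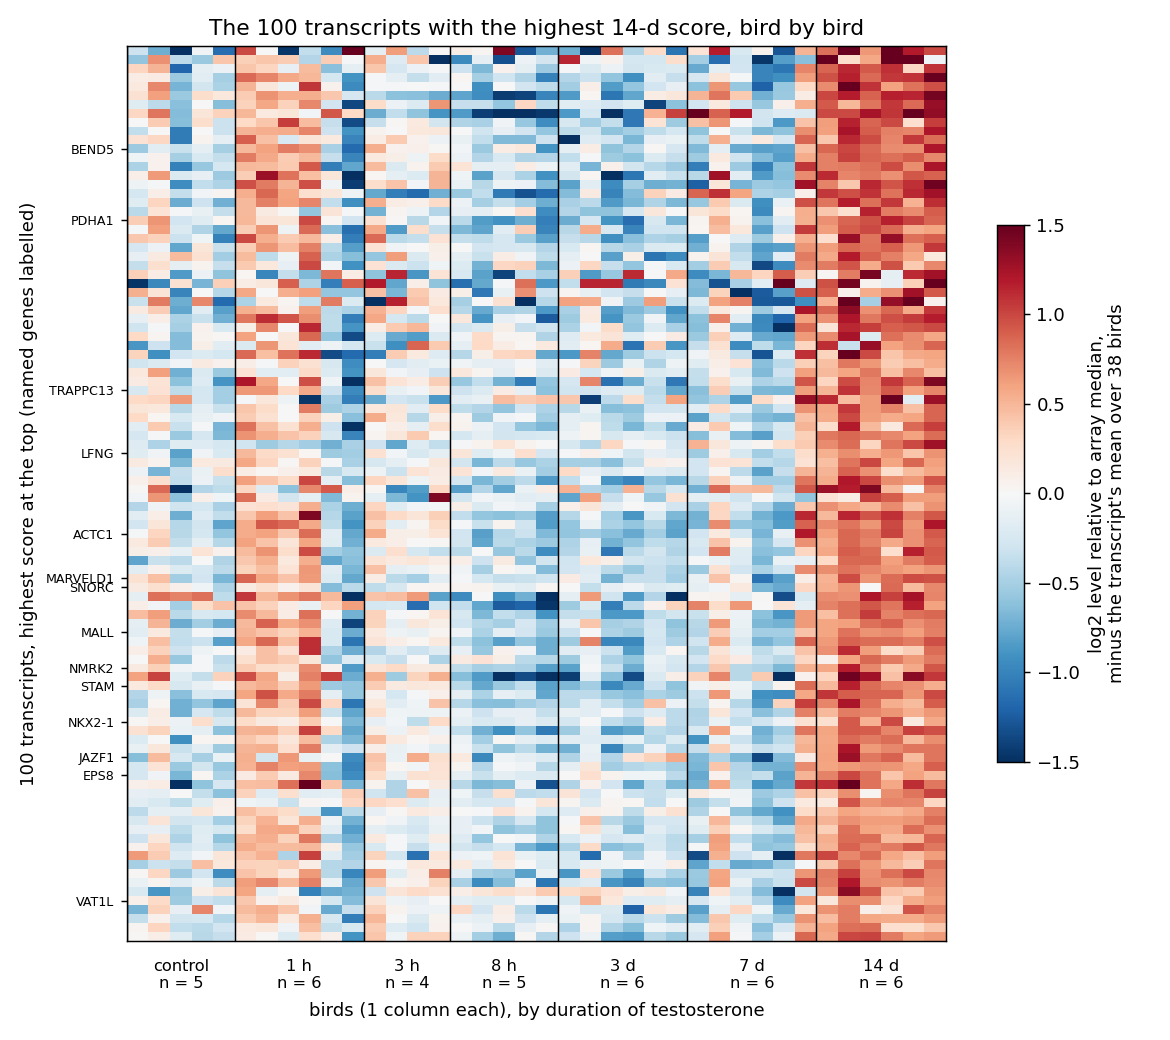
Log2 level relative to the array median of the 100 transcripts (rows, highest score at the top) in each of 38 birds (columns, grouped by duration), after subtracting each transcript's mean over birds. The colour scale is clipped at -1.5 and 1.5, and the 6 columns at 14 d are mostly high, with some 1-hour and 7-day columns also high.

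In limma's fit with 1 mean for each group, 92 of the 100 were called higher at 14 d than in control at an adjusted p under 0.05 (25.1% of all transcripts), 88 higher than at 7 d (11.6%), 96 higher than at 3 d (24.4%), 94 higher than at 8 h (22.3%), 52 higher than at 3 h (7.97%) and 36 higher than at 1 h (2.72%). All 6 comparisons were called for 23 of them (0.89%). Over all transcripts, the 232 called in all 6 comparisons became 8 with the left-out 3-hour array kept, 26 without 14-day replicate 2 and 651 without 1-hour replicate 4. The counts among the 100 use the values that chose them, and nothing is read from them against the shares of all transcripts. The means of the other groups enter the rule only through their maximum. In comparisons of these groups with control, and of 7 d over 3 d, 0 to 8 of the 100 were called. Other pairs of them were not compared. The rule passes over transcripts that are high in any of these groups, so it favours few calls higher than control. Nothing is read from these counts against the shares of all transcripts. The 100 spread more widely within groups than all transcripts (given below), so a transcript that was not called is not shown to be unchanged. Higher than control were 3 at 1 h (6.86% of all transcripts), 0 at 3 h (3.13%), 0 at 8 h (6.71%), 0 at 3 d (1.23%) and 1 at 7 d (6.35%). Lower than control were 0 at 1 h (9.65%), 1 at 3 h (5.86%), 8 at 8 h (6.2%), 1 at 3 d (1.44%) and 0 at 7 d (9.44%). Between 7 d and control 1 of the 100 was called in either direction, against 15.8% of all transcripts. An unadjusted p under 0.05 there was reached by 4 of the 100, against 31.8% of all transcripts. Called higher at 7 d than at 3 d were 6 of the 100 (9.92%).

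The 14 named transcripts described here belong to several unrelated functions, and none is in the 18 lists of hormone, synapse, signalling and marker genes used with these data. For the 3 that act in the nucleus, BEND5 (a BEN-domain repressor) was 0.80 ± 0.19 at 14 d (SD, n = 6), with birds from 0.61 to 1.12 and a median of 0.77. The next group by mean was 3 h at 0.09 ± 0.25 (SD, n = 4). The 1-hour birds averaged 0.06 ± 0.79 (n = 6), but their median was 0.46. The 7-day birds averaged -0.54 ± 0.51 (n = 6) with a highest of 0.36, and the 5 controls were -0.63, -0.25, -0.42, -0.23 and -0.58. Only the 1-hour birds, reaching 0.68, overlapped with 14 d. JAZF1, a zinc-finger protein of a chromatin-modifying complex, was -0.45 ± 0.28 at 14 d, -0.98 ± 0.28 at 3 h, -1.87 ± 0.48 at 7 d and -1.46 ± 0.43 in controls. Its 14-day birds overlapped with those at 1 h, 3 h and 3 d. NKX2-1, a homeobox factor of the ventral forebrain, was -1.35 ± 0.34 at 14 d and -1.88 ± 0.38 at 1 h, the next group, and its controls, from -2.16 to -1.65, overlapped with 14 d.

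Membrane and cell-surface genes made up a second group. LFNG encodes a fringe glycosyltransferase that modifies Notch receptors. It averaged 0.74 ± 0.10 at 14 d, with a lowest bird of 0.57, a median of 0.75 and a highest of 0.84, and the 1-hour group, the next, averaged 0.15 ± 0.43 with a highest bird of 0.64. The 5 controls were -0.03, 0.10, -0.64, 0.09 and -0.08. Outside the 1-hour group no bird reached the 14-day range for this gene. MALL, a MAL-like protein of membrane rafts, averaged 0.53 ± 0.08 at 14 d and -0.03 ± 0.51 at 1 h, where the birds spread from -0.91 to 0.35. MARVELD1, a MARVEL-domain membrane protein, was 1.63 ± 0.19 at 14 d, 1.06 ± 0.62 at 1 h, 0.56 ± 0.59 at 7 d and 0.64 ± 0.49 in controls. SNORC, a transmembrane proteoglycan known from cartilage in mice, was lower than the array median throughout, at -0.92 ± 0.29 at 14 d and -1.48 ± 0.28 in controls, and its lowest 14-day bird, at -1.45, was below the highest bird of every other group except 3 d.

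PDHA1 and NMRK2 are metabolic enzymes. PDHA1 is the alpha subunit of the first enzyme of pyruvate dehydrogenase, which links glycolysis to the citric acid cycle. It averaged 0.64 ± 0.16 at 14 d, with birds from 0.40 to 0.87 and a median of 0.62, and the 5 controls were 0.08, 0.37, -0.57, -0.48 and -0.26. The 1-hour group was next at -0.02 ± 0.44, with 1 bird at 0.70, and the 8-hour and 3-day groups were the lowest of all at -1.07 ± 0.23 (SD, n = 5) and -0.95 ± 0.36 (n = 6). All 8-hour and 3-day birds of PDHA1 thus lay below every 14-day bird by more than the whole 14-day range. NMRK2, a nicotinamide riboside kinase of NAD+ synthesis, was -0.45 ± 0.28 at 14 d, -0.99 ± 0.08 at 3 h, -1.35 ± 0.50 at 7 d and -1.16 ± 0.26 in controls. Its lowest 14-day bird, at -0.79, was below the highest bird at 1 h (-0.48) and at 7 d (-0.65).

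TRAPPC13 and STAM are vesicle trafficking genes, and VAT1L is given with them for its name alone. TRAPPC13, a subunit of the TRAPP vesicle-tethering complex, averaged 1.27 ± 0.21 at 14 d, 0.66 ± 0.65 at 1 h and 0.27 ± 0.28 in controls. STAM, a component of the endosomal sorting machinery, averaged 2.19 ± 0.25 at 14 d, 1.65 ± 0.12 at 3 h and 1.46 ± 0.21 in controls. Its 1-hour birds averaged 1.59 ± 0.56 with a median of 1.87. TRAPPC13 and STAM overlapped with the 14-day birds in the 1-hour and 7-day groups and in no other group. VAT1L, named for its likeness to a vesicle amine transport protein, was 0.93 ± 0.22 at 14 d and 0.42 ± 0.14 at 3 h, and of the other groups only the 8-hour birds lay wholly below its 14-day range.

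ACTC1 and EPS8 act in the actin cytoskeleton. ACTC1 is an alpha-actin best known from heart muscle. Its 14-day birds ranged from 2.32 to 2.72 with a median of 2.53 and a mean of 2.52 ± 0.15, and the 5 controls were 1.69, 2.03, 1.29, 1.45 and 1.12. The 1-hour birds averaged 1.95 ± 0.60 with a highest of 2.54, and 1 bird of the 7-day group, at 2.91, was above every 14-day bird. EPS8, an actin-capping protein and substrate of the epidermal growth factor receptor, was 0.65 ± 0.22 at 14 d, 0.12 ± 0.18 at 3 h and -0.31 ± 0.30 in controls. Its lowest 14-day bird, at 0.39, was below the highest bird at 1 h (0.70) and at 7 d (0.48).

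**Figure D3:**
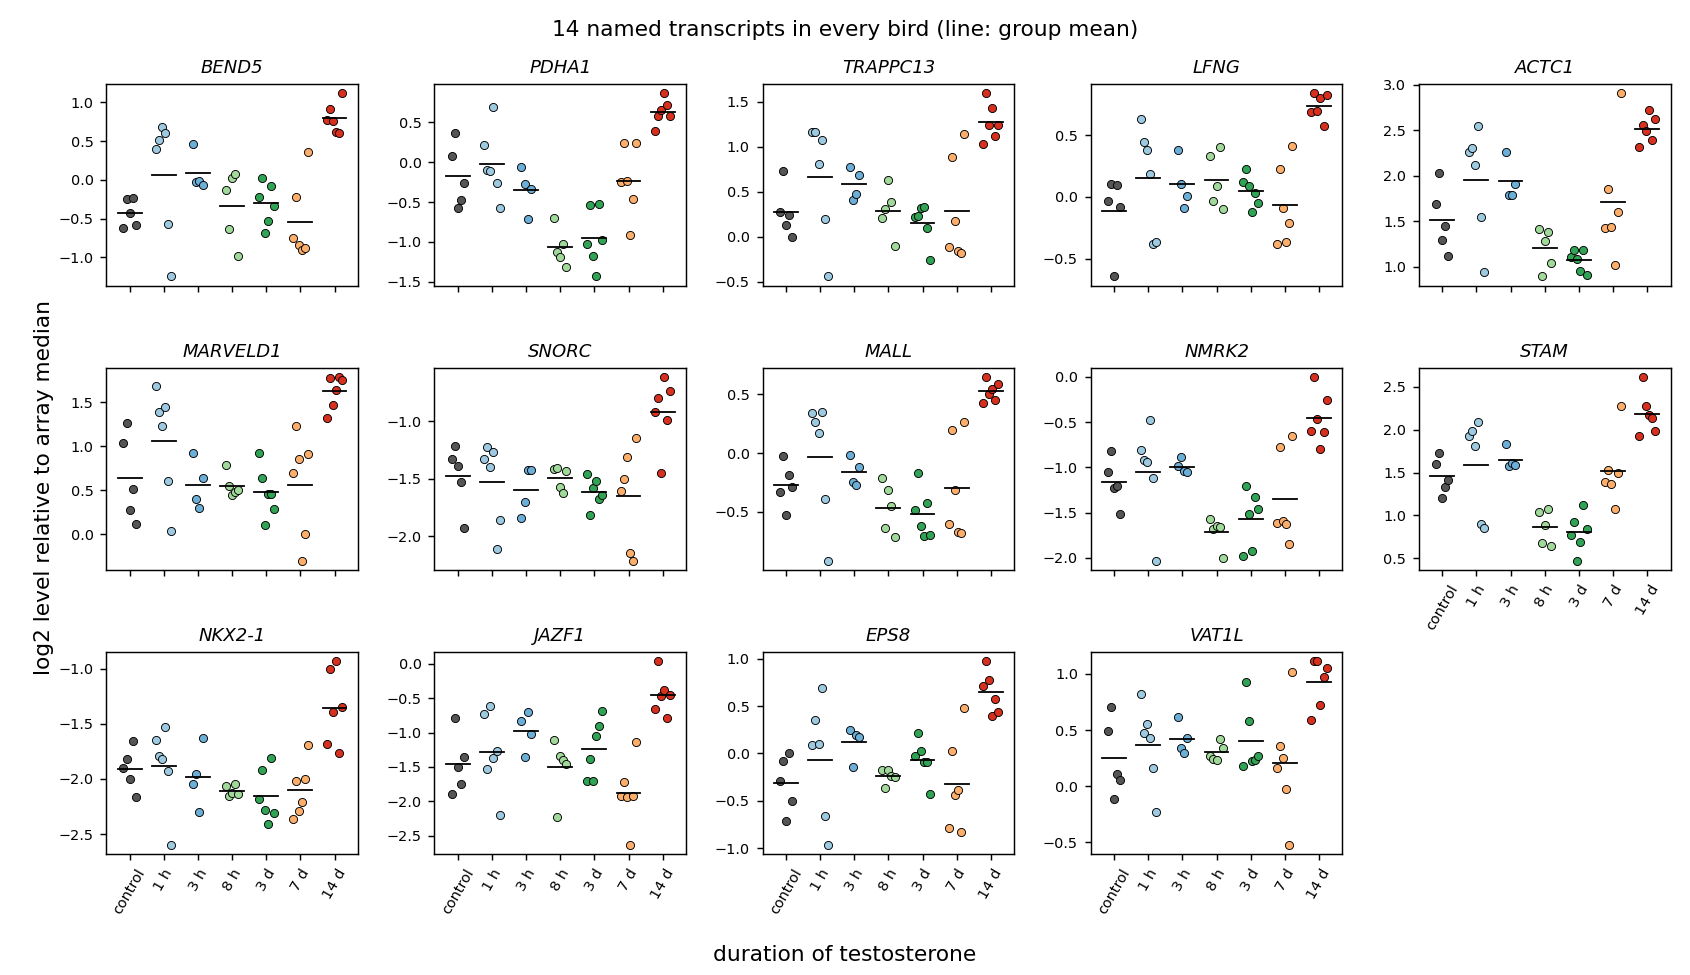
Log2 level relative to the array median of 14 named transcripts in each bird (points) and the group mean (line), by duration of testosterone; each panel has its own vertical scale. The 14-day means are the highest in every panel, as the rule requires, and the 7-day bird of ACTC1 at 2.91 is the highest point of its panel.

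The unnamed transcripts with the highest scores were XM_002193702 (score 1.08) and ENSTGUT00000007115 (1.01). Both were dim. XM_002193702 had a deposited log2 level of 4.90 at 14 d and 2.74 in controls, where the lowest array's 5th percentile was 3.43. Its birds ranged from -3.42 to -2.43 at 14 d and from -5.70 to -4.13 in controls, relative to the array median, but 1 bird of the 1-hour group reached -2.15. The highest birds at 8 h (-2.68), 7 d (-2.90) and 3 d (-3.25) lay within the 14-day range. ENSTGUT00000007115 spread from -4.05 to -1.30 within the 14-day group (SD 1.09), the widest spread at that time among the transcripts named here.

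The 100 transcripts varied more than others within the groups that preceded 14 d. The median within-group SD was 0.59 at 1 h, 0.53 at 7 d and 0.35 in controls, against 0.25, 0.20 and 0.17 over all transcripts. At 14 d it was 0.22, against 0.17. The within-group deviations, which the rule did not use, moved together. Over 38 arrays the median Pearson correlation between pairs of the 100 was 0.54, and 54.4% of the 4950 pairs were over 0.5, against a median of 0.00 and 6.18% among 1003 transcripts taken at a fixed step from all. The arrays are shared by all pairs, so these values describe the set and carry no test.

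Those deviations followed the array median. In the 32 arrays without the 14-day group, limma fitted the level of each transcript on the array median with a mean for each group. That level is the deposited value minus the same array median, so level and predictor are tied. A transcript with a constant deposited value would fall by 0.1 for each 0.1 of array median. How much of the slopes over all transcripts comes from this tie was not tested. The slope was called positive for 82 of the 100 (24.9% of all transcripts) and negative for 0 (32.6%). An unadjusted p under 0.05 in either direction was reached by 83 of the 100, against 62.2% of all transcripts. The median change was 0.36 for each 0.1 of array median, with a range of -0.25 to 0.70, against -0.03 over all transcripts, and it was above 0 for 95 of the 100, against 44.3%. Among named genes the slope for each 0.1 was 0.45 ± 0.04 for ACTC1 (SE, adjusted p = 4.88e-09 in limma), 0.34 ± 0.04 for MALL (adjusted p = 2.26e-08) and 0.45 ± 0.06 for BEND5 (adjusted p = 1.2e-06). JAZF1 had 0.28 ± 0.08 (limma, adjusted p = 0.0055).

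**Figure D4:**
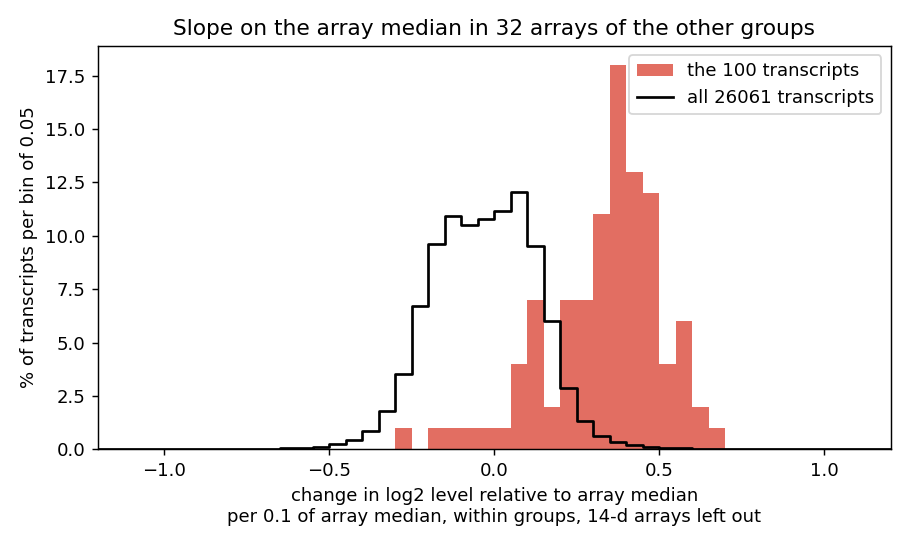
Distribution of the change in log2 level relative to the array median for each 0.1 of array median, within groups and with the 14-day arrays left out, for the 100 transcripts (bars) and all 26061 transcripts (line). The median is 0.36 for the 100 and -0.03 for all transcripts.

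The array median and the 14-day group went together in these birds. The 14-day arrays had medians of 7.78 to 7.91, and 3 arrays of other groups lay inside that range: 1-hour replicates 1 (7.80) and 4 (7.85) and 7-day replicate 6 (7.87). In these 3 birds the median of the 100 transcripts was 0.30, 0.47 and 0.38, below the 0.63 mean at 14 d and above the mean of every other group. The 14-day mean exceeded the mean of these 3 arrays by a median of 0.24 over the 100, and that of the other 29 arrays by 0.97. The 14-day mean was above the highest of the 3 for 54 of the 100, and every 14-day bird was above all 3 for 10. Both counts use the 14-day values that chose the 100. Their shares over all transcripts were not taken, so nothing is read from them. What share of the 14-day difference goes with the array median was not tested beyond a fit with the array median as a covariate, which was chosen after seeing the data. In that fit 59 of the 100 kept a score above 0 (15.7% of all transcripts), with a median score of 0.058, and 18 were still among the 100 highest. It called 3 of the 100 higher than control (1.54%) and 34 higher than 7 d (2.87%). These values too rest on the contrasts that chose the 100, and nothing is read from them against the shares of all transcripts.

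**Figure D5:**
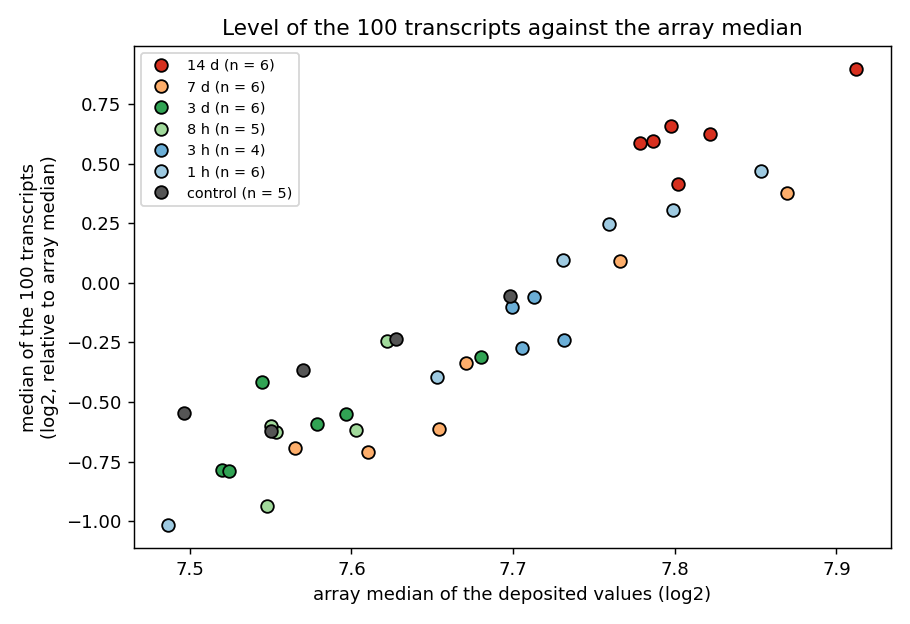
Median log2 level of the 100 transcripts relative to the array median (vertical) against the array median of the deposited values (horizontal), 1 point for each bird, coloured by duration. The 14-day birds lie at the upper right, and the 1-hour and 7-day birds with array medians of 7.80 to 7.87 lie between 0.30 and 0.47.

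The 18 transcripts without a called slope had a median level of 5.44, against 7.48 for the 100, and a median score of 0.62. They include XM_002193702 and ENSTGUT00000007115, whose slopes for each 0.1 were -0.17 ± 0.20 and 0.07 ± 0.13 (limma, adjusted p = 0.48 and 0.65). In the fit with the array-median covariate these 2 unnamed transcripts had scores of 1.26 and 1.02, the highest of all transcripts, while JAZF1 had 0.08. There XM_002193702 was called higher than control but not higher than 7 d (limma, adjusted p = 0.0499 and 0.17). ENSTGUT00000007115 was called higher than 7 d but not higher than control (limma, adjusted p = 0.0067 and 0.17).

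The 14-day birds themselves differed. Replicate 2 was the highest of the 6 for 43 of the 100 and had the highest array median, at 7.91, while replicate 1 was the lowest for 35 and replicate 5 for 26. When the rule was applied without 1 of the 14-day birds, 81 to 88 of the 100 transcripts so chosen were among the original 100. The bird left out, which had no part in that choice, stood above the highest other group mean for 90 to 95 of the 100, against 24.1 to 37.3% of all transcripts. Its median excess over that mean was 0.38 to 0.63, and the other 5 birds had 0.55 to 0.61. The 6 such readings reuse the same reference birds. The choice also favoured transcripts whose other group means were low, which raises the excess of any bird over those means. All 14-day birds had high array medians as well (7.78 to 7.91). The readings are therefore a description, and nothing is read from them against the shares of all transcripts.

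Most bird titles carry a letter, L or R, whose meaning is not stated in the labels. With a term for the letter, limma called 0 of the 26061 transcripts at an adjusted p under 0.05, and 3.78% passed an unadjusted p under 0.05, with 0 of the 100 among them.

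The 18 lists, 8 of them of cell type markers and the others of hormone receptors, signalling, synapse and related genes, held 332 genes, of which 78 matched a transcript. At 14 d, 21 of the 78 were called higher than control and 21 lower (limma; 25.1% and 27.1% of all transcripts). Of 9 measured genes in the list of monoamine and muscarinic receptors, none of them muscarinic, 5 rose and 2 fell. DRD4, a dopamine receptor, was higher by 0.81 ± 0.20 (SE, limma adjusted p = 0.0013), and HTR2C, a serotonin receptor, was lower, with a change of -0.76 ± 0.12. Of 9 splicing regulators 2 rose and 5 fell, among them KHDRBS3 with -1.04 ± 0.17. MBNL1 was called higher, but its deposited log2 level was 4.29 at 14 d and 2.85 in controls, the second below the lowest array's 5th percentile of 3.43, so that the size of its difference is not given. Of 10 neuropeptide genes and receptors 3 rose and 4 fell, with CRHBP, which binds corticotropin-releasing hormone, at 1.11 ± 0.25 and the receptor NPY1R at -0.81 ± 0.20. These genes had the same signs on the scale as deposited and after quantile normalization. With the array median as a covariate (chosen after seeing the data), DRD4 turned to -0.037 and NPY1R came to -0.035 (limma, adjusted p = 0.92 and 0.95), while CRHBP, at 1.19, was still called (adjusted p = 0.041). Counts did not: as deposited, where 14-day arrays were brighter, 11257 transcripts were called higher and 3716 lower, against 6537 and 7070 after centring. ESR1, an estrogen receptor, was called lower after centring (-0.76 ± 0.27, limma adjusted p = 0.019) and was lower but not called as deposited. That covariate left CRHBP as the only called gene among the monoamine receptor, splicing, neuropeptide and hormone receptor lists. Some of these differences from control were also seen at other durations. Relative to the array median, CRHBP averaged 2.06 at 7 d and 2.22 at 14 d (limma, adjusted p = 0.64). NPY1R averaged -1.94 at 1 h, -2.08 at 3 h and -2.08 at 14 d, and HTR2C -0.72, -0.65 and -0.64. DRD4, at 0.19, was highest at 14 d, and KHDRBS3, at 2.20, was lowest there.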

How the data were processed

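HVC of 39 birds was measured on Affymetrix arrays, 1 bird each, after total RNA was amplified and labelled per the labels' protocols. What was deposited are log2 levels made by the authors, 1 for each transcript identifier on each array. The submitters' processing notes list Affymetrix Expression Console and affy without versions, and the summarising method, normalization and build are not given in the sources used here. The precision is limited by the number of arrays.

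From these, each array's median was subtracted, 3-hour replicate 2 was left out, and limma 3.58.1 in R 4.3.3 (lmFit and eBayes) fitted 1 mean for each of the 7 groups to 38 arrays, with Benjamini-Hochberg adjustment over 26061 transcripts and a threshold of 0.05. The fits were tested on simulated data whose noise was independent between transcripts. Such data cannot show false calls from variation that the transcripts of an array share. Slopes used the 32 arrays without the 14-day group, and the letter test the arrays with a letter. Python 3.11.15, pandas 2.3.3 and matplotlib 3.10.9 drew the figures. Identifiers were paired with symbols by RefSeq accession without version, from a RefSeq table (assembly bTaeGut7.mat): 2471 of 26061 matched a gene, 2244 with an official symbol, and 23590 did not match.

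Named are the transcripts among the 100 with a symbol (1 of the 15 is not reported here), the 2 unnamed ones with the highest score, the 3 named transcripts just outside the 100, and up to 4 genes of each list described. The 100 transcripts and the lists were chosen with earlier results of these data known. Replicates are birds, labelled as biological replicates. Alternatives were another centring or normalization, keeping the 3-hour array, dropping dim transcripts, group medians, other terms in the fit and leaving out each array. A planned description of promoter motifs was not run, since no promoter sequences were used here.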

Additional observations from a re-analysis of the deposited data

Results flagged for a closer look

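Among 126 sets of birds (the 14 named and 2 unnamed transcripts of highest score, the median of the 100 and the array median, in each of 7 groups of 4 to 6 birds), 7 had a bird standing far from the others of its group, and chance alone gives about 1 in 20. In levels relative to the array median, BEND5 was 0.46 in 3-hour replicate 1 (nearest other bird -0.01), and STAM was 1.83 in the same bird (nearest 1.61). LFNG was -0.64 in control replicate 3 (nearest -0.08). At 8 h, MARVELD1 was 0.79 in replicate 1 (nearest 0.55) and NMRK2 was -2.00 in replicate 5 (nearest -1.67). NKX2-1 was -2.60 in 1-hour replicate 6 (nearest -1.93). The array median of 14-day replicate 2 was 7.91 (nearest 7.82), and that bird was the highest of its group for 43 of the 100 transcripts. In the array of 3-hour replicate 2, which the rule left out, the median of the 100 transcripts was 0.56. That is above the highest control bird at -0.05 and within the 14-day range of 0.41 to 0.90.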

How the results depend on the processing

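Of the 100 transcripts, 87 remained with values as deposited, 83 after quantile normalization, 67 with 3-hour replicate 2 kept, 73 without the dimmest 25% of transcripts, 70 with the maximum taken over 1 h, 3 h and 7 d alone, 57 with group medians, 18 with the array median as a covariate (chosen after seeing the data) and 6 when the difference was divided by the within-group SD. Leaving out 1 array left 64 (without 1-hour replicate 6) to 100. The cause of these differences was not tested. The 4 transcripts with separated birds became 1 with 3-hour replicate 2 kept, 2 without the dimmest 25% and 4 to 10 with 1 array left out (7 to 10 without 14-day replicates 1, 3 or 5 or 1-hour replicates 1 or 4). In the fit with the array-median covariate, the scores of EPS8 (-0.17), NMRK2 (-0.16), STAM (-0.029) and VAT1L (-0.22) changed sign. The other 10 named scores stayed above 0 but moved by more than 1 SD, to between 0.023 (LFNG, 0.59 without the covariate) and 0.080 (JAZF1, 0.53 without it). Over named scores, 6 of 532 values with 1 array left out moved by more than 1 SD. With 3-hour replicate 2 kept, counts were 2030 for 7 d against control (main 4113), 1668 for 14 d over 7 d (3022) and 8 for 14 d over all 6 groups (232). With the title letter as a term they were 2741 for 7 d against control and 116 for all 6 groups. As deposited, 4901, 11257 and 389 were called over 7 d, over control (6537) and over all 6 groups; with the array median as a covariate, 748, 401 and 2. With 1 array left out, the ranges were 2334 (without 7-day replicate 6; 2506 and 2356 without control replicates 4 and 5) to 5099 for 7 d against control, 1642 (without 7-day replicate 4; 1875 without 14-day replicate 2 and 1916 without 7-day replicate 5) to 4497 over 7 d, 5547 to 6771 over control, 26 (without 14-day replicate 2) to 651 (without 1-hour replicate 4) over all 6 groups, where 14-day replicates 3, 4 and 6, 1-hour replicates 1, 3, 5 and 6, 3-hour replicates 3 to 5 and 7-day replicate 6 also moved the count by over 1.5 times, and 12717 to 15263 for the slope (15001). Titles share replicate numbers, but same-numbered birds did not deviate together (mean r 0.015 over pairs of groups). A replicate block gave 3867 for 7 d against control, 3001 over 7 d, 6427 over control, 155 over all 6 groups and 13737 slopes. The letter called 0 throughout.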
